A study of Mus musculus with 4 samples.

Results

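The 8 genes followed here encode receptors and adhesion molecules that hold blood progenitors in the marrow or guide them through it: Cxcr4, Cxcr2, Itga4, Itgb1, Itgb2, Selplg, Cd44 and Cd47. They were taken by symbol from the gene rows of the count tables. Each symbol matched 1 row, so all 8 of 8 members were found among the 32285 genes counted. Single cells of the CD45.2+Kit+ fraction of mouse bone marrow were profiled 10 weeks after transplantation with 10x Genomics 3′ chemistry and 15 barcoded antibodies. The labels name a control group and, beside it, Mll3SI, Mll4SI and the combined Mll3/4SI group. Each of the 4 groups is 1 library. The labels spell out neither SI nor the genotype of the control, and they give no strain, host, animal number, promoter or cell type behind the alleles. Mll3 and Mll4 are older names of Kmt2c and Kmt2d, which encode histone methyltransferases that act at enhancers. With 1 library per group no test between groups is possible, and the 95% intervals given here cover counting error only. The same control library served all 3 comparisons.

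Retention and release of marrow cells turn on a balance between these molecules. CXCR4 is the receptor for CXCL12, made by marrow stroma, and holds stem cells, progenitors and neutrophils in the marrow. CXCR2 binds CXC chemokines of the CXCL1 and CXCL2 type and draws neutrophils out into the blood. The α4 and β1 integrin chains (Itga4 and Itgb1) pair to form VLA-4, which binds VCAM-1 on stroma and endothelium. The β2 chain (Itgb2) pairs with αL, αM or αX to form the leukocyte integrins. PSGL-1 (Selplg) is the main ligand of P-selectin, CD44 binds hyaluronan and carries selectin ligands, and CD47 signals through SIRPα on macrophages to hold back phagocytosis.

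The 2 chemokine receptor genes are shown with the 250 bases before their RefSeq start (build GRCm38.p6), because both were higher at late than at early granulocyte stages, while only Cxcr2 was past 1.5-fold between libraries over all cells. RefSeq promoter entries were found for 6 of the 8 members. The Cxcr4 window is chr1:128592300-128592549 on the minus strand, the Cxcr2 window chr1:74153744-74153993 on the plus strand, and both are printed 5′ to 3′. Capitals mark matches on either strand to TATAAA (the TATA box), GGGCGG (the GC box), GAGGAA (a purine-rich core bound by PU.1) or TTGCNNAA (a C/EBP-type site).
Cxcr4: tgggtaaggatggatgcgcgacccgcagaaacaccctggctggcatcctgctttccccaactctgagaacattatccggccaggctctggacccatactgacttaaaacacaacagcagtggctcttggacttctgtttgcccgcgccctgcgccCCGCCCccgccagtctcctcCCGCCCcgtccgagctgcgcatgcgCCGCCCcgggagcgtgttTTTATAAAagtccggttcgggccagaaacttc
Cxcr2: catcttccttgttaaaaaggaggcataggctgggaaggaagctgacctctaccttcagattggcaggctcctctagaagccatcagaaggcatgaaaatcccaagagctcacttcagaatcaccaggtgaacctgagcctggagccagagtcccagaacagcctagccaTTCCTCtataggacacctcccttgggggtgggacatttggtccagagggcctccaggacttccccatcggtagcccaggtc
The Cxcr4 window held a TATA box 30 bases before the start, read on both strands with an overlap, and 3 GC boxes at 95, 75 and 50 bases before it. It had 19 CpG dinucleotides, more than 80.3% of the 32851 windows of the same length. The Cxcr2 window had 1 CpG, no TATA or GC box, and a single GAGGAA match on the minus strand 81 bases before the start. Of all windows, 12.4% held TATAAA, 32.7% GGGCGG, 23.3% GAGGAA and 9.56% TTGCNNAA. A match describes letters and was not tied to any binding here.

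In the GENCODE M21 annotation of GRCm38 all 8 members are protein-coding genes. Cxcr4 (ENSMUSG00000045382) lies at chr1:128588199-128592293 on the minus strand and Cxcr2 (ENSMUSG00000026180) at chr1:74153989-74161246 on the plus strand. Itga4 (ENSMUSG00000027009) lies at chr2:79255426-79333123, Itgb1 (ENSMUSG00000025809) at chr8:128685654-128733200 and Itgb2 (ENSMUSG00000000290) at chr10:77530252-77565708, each on the plus strand. Selplg (ENSMUSG00000048163) lies at chr5:113818536-113832644 and Cd44 (ENSMUSG00000005087) at chr2:102811141-102901665, both on the minus strand. Cd47 (ENSMUSG00000055447) lies at chr16:49800533-49915010 on the plus strand.

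After filtering, 6743 cells were kept in control, 8023 in Mll3SI, 10186 in Mll4SI, while Mll3/4SI kept 6755, with a median of 12800 to 19172 unique molecular identifiers (UMIs, each a counted RNA molecule) per cell. The 8 members took 0.137 to 0.156% of the UMIs of a library. Kmt2c stood at 110 to 148 CPM (counts per 1000000 UMIs) and Kmt2d at 33.3 to 41.5 CPM. The libraries also differed by sex-linked genes. Xist, which is expressed from the inactive X of females, was at 1149 CPM in Mll4SI, with Mll3/4SI at 1358 CPM against 0.032 and 0.194 CPM in control and Mll3SI, and Y-linked Eif2s3y was at 0 UMIs in the first pair and at 63.4 and 61.9 CPM in the second. Any library pair shared 16 to 29 cell barcodes, at most 0.355% of a library. Most cells carried 1 of 2 hashtag antibodies whose meaning the labels do not give, and 2.28 to 5.57% of the cells of a library carried both. The cells of each hashtag are given below as 2 parts of a library, not as replicates.

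Cells were clustered jointly into 27 clusters and named "-like" from marker genes. HSC/MPP-like cells (stem cells and multipotent progenitors) numbered 786 in control, 812 in Mll3SI, 634 in Mll4SI, while Mll3/4SI had 336. Their 14 markers summed to 1878, 2071, 1878 and 1560 CPM in that order, with none at 0. Granulocyte-like clusters were ordered as early, intermediate or late by granule genes, with limits set after the data were seen. Late granulocyte-like cells numbered 2243, 2392, 6824 and 1793. They came from different clusters: clusters 1 and 12 held 1423 and 426 of the control cells, clusters 0 and 2 held 2850 and 2880 of the Mll4SI cells, and cluster 9 held 1256 of the Mll3/4SI cells. Intermediate cells came mostly from cluster 3 in control and Mll3SI (1003 and 1245 cells), from cluster 15 in Mll4SI (345) and from clusters 14 and 21 in Mll3/4SI (970 and 450). Transcripts of Kit, the receptor used for the sort, were at 188.9 to 223.8 CPM in HSC/MPP-like cells and at 33.4 to 54.7 CPM in late granulocyte-like cells. Clusters 10 and 19, led by Cpa3 and Fcer1a, held 1811 cells of Mll3/4SI and 2 of all other libraries and were kept out of every class.

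Cxcr4 was higher along the granulocyte series in all 4 libraries. In control it stood at 67.9 CPM in HSC/MPP-like, 64.5 in early, 150.05 in intermediate and 182 CPM in late granulocyte-like cells. In Mll3SI the same classes stood at 71.1, 58.1, 121 and 155 CPM, in Mll4SI at 72.9, 76.2, 136 and 184 CPM, and in Mll3/4SI at 61.8, 68.2, 158 and 167 CPM. The late-to-early log2 ratio was 1.48, 1.40, 1.26 and 1.28 in the 4 libraries, so the late level was over 2 times the early level in each. Basophil/mast-like cells (112.6 to 166 CPM), B-lymphoid-like cells (85.6 to 125 CPM) and monocyte-like cells (82.9 to 114 CPM) lay between these ends. Erythroid-like cells (18.6 to 28.5 CPM) and T/NK-like cells (8.16 to 30.7 CPM in the 3 libraries with at least 20 such cells) were lowest. The ranges of late and intermediate granulocyte-like cells overlapped, as did those of the HSC/MPP-like and early classes.

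Among the named classes Cxcr2 was highest in late granulocyte-like cells. In late granulocyte-like cells it stood at 31.4 CPM in control, 29.5 in Mll3SI, 54.2 in Mll4SI, with Mll3/4SI at 44.0 CPM. In intermediate cells it stood at 10.9, 11.2, 30.9 and 28.5 CPM, and in early cells at 3.72, 2.37, 6.91 and 8.26 CPM. Erythroid-like cells held 0 to 2.79 CPM and B-lymphoid-like cells 0 to 2.97 CPM. Within the class of late cells the most mature cluster, number 0, led by Retnlg and Mmp8, held 117 CPM in control, 117 in Mll3SI, 121 in Mll4SI, with Mll3/4SI at 134 CPM.

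Itga4 ran the opposite way to Cxcr4. In control it stood at 231 CPM in HSC/MPP-like, 131 in early, 41.4 in intermediate and 40.1 CPM in late granulocyte-like cells. The late-to-early log2 ratio ran from -1.68 in control to -1.42 in Mll3/4SI, so early cells were higher in every library. Lymphoid, mast and erythroid cells carried the most: T/NK-like cells 599 to 857 CPM, basophil/mast-like cells 347 to 510 CPM, B-lymphoid-like cells 221 to 376 CPM and erythroid-like cells 289 to 318 CPM. The HSC/MPP-like range of 198 to 231 CPM lay above those of early granulocyte-like cells (117 to 131 CPM) and monocyte-like cells (103.5 to 113 CPM) without overlap.

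Itgb1, the partner of Itga4 in VLA-4, varied less. Its range was 118 to 128 CPM in HSC/MPP-like cells, 91.5 to 109 CPM in early and 63.2 to 77.2 CPM in late granulocyte-like cells. The late-to-early log2 ratio ran from -0.71 in control to -0.32 in Mll3/4SI. T/NK-like cells stood apart at 360 to 449 CPM.

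Itgb2 had the sharpest step. In control it stood at 13.1 CPM in HSC/MPP-like cells and 23.1 CPM in early granulocyte-like cells, then at 295 CPM in intermediate and 330.5 CPM in late cells. The other libraries held 10.6, 15.3 and 13.8 CPM in HSC/MPP-like cells (Mll3SI, Mll4SI, Mll3/4SI) and 323, 310 and 286 CPM in late cells. Monocyte-like cells stayed at 14.1 to 16.7 CPM, while T/NK-like cells held 188 to 205 CPM. Ranges of the classes on either side of the step did not overlap.

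Selplg was highest outside the granulocyte series. T/NK-like cells held 241 to 357 CPM, B-lymphoid-like cells 80.7 to 128 CPM and monocyte-like cells 88.0 to 97.7 CPM. HSC/MPP-like cells held 57.1 CPM in control, 51.1 in Mll3SI, 44.7 in Mll4SI, with Mll3/4SI at 56.7 CPM, above the 22.3 to 34.3 CPM of the 3 granulocyte stages.

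Cd44 followed Cxcr4 within the granulocyte series. It stood at 96.8, 91.9, 124 and 98.7 CPM in early cells of control, Mll3SI, Mll4SI and Mll3/4SI and at 303, 290.3, 335 and 289 CPM in late cells. HSC/MPP-like cells held 122 to 145 CPM, and B-lymphoid-like cells held the least, 32.6 to 60.1 CPM.

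Cd47 was found in every named class. Its lowest value there was 431 CPM in B-lymphoid-like cells of Mll4SI and its highest 1163 CPM in basophil/mast-like cells of Mll3/4SI. HSC/MPP-like cells (805 to 864 CPM) lay above all 3 granulocyte stages (600.3 to 741 CPM) without overlap.

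**Figure D1:**
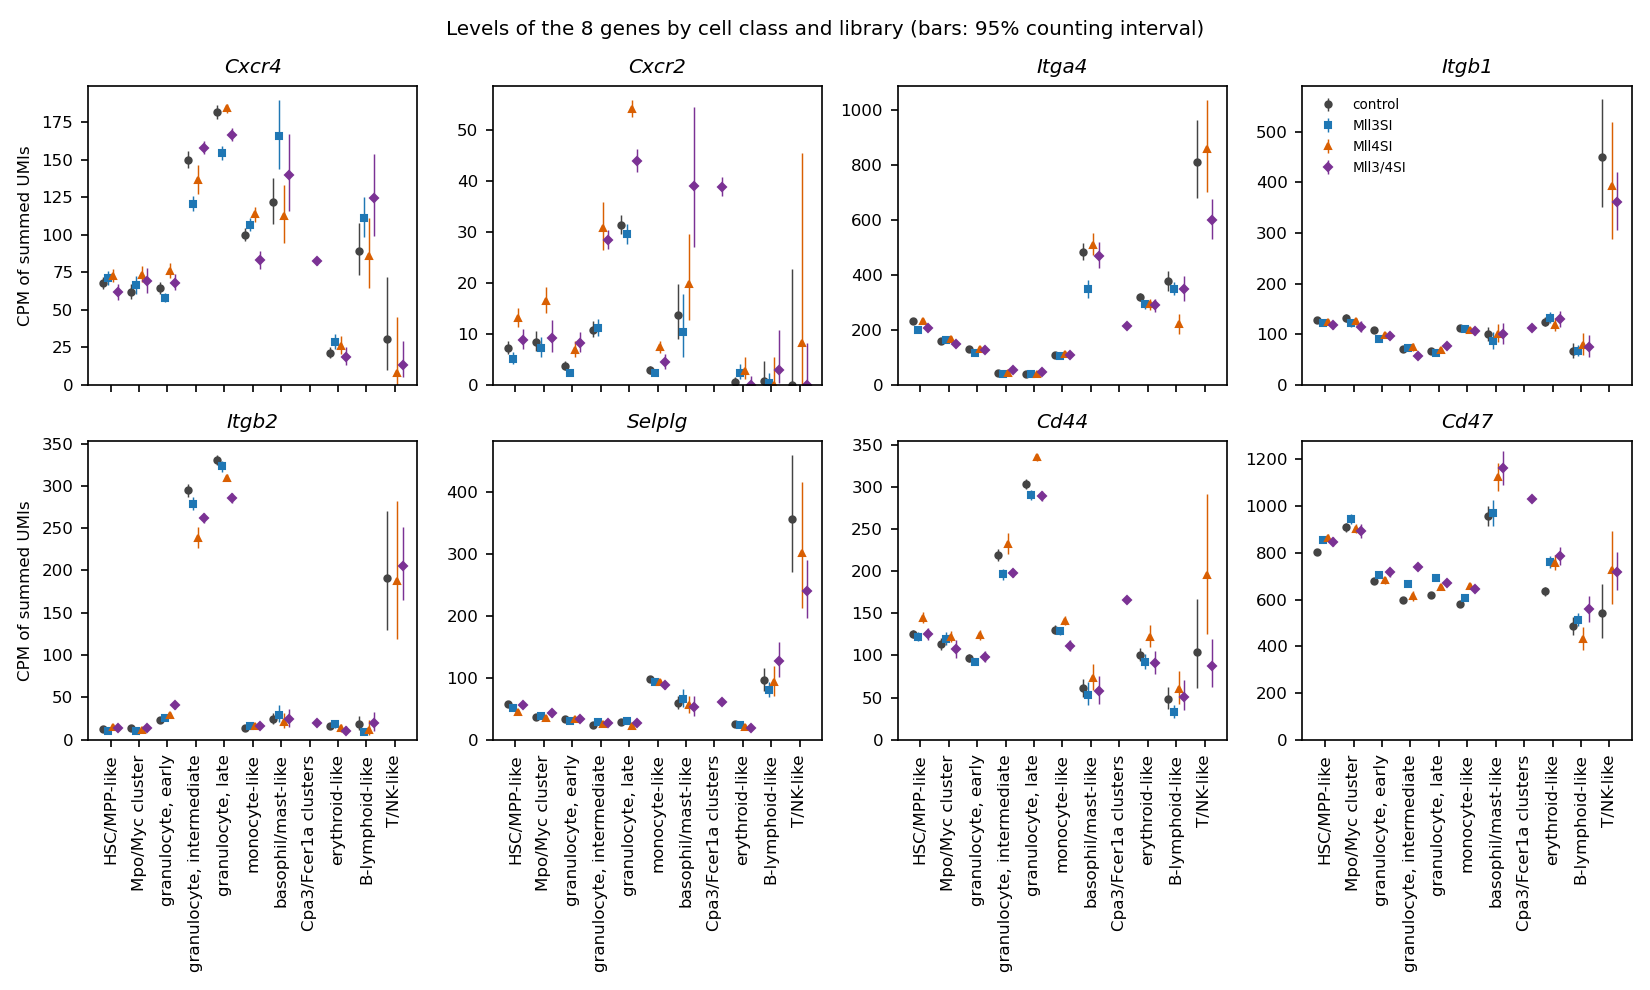
CPM of summed UMIs (y axis, linear) for each of the 8 genes in 11 cell classes or clusters (x axis). Points are the 4 libraries, bars the 95% counting interval, and libraries with under 20 cells of a class are left out. Cxcr4, Cxcr2, Itgb2 and Cd44 are high in late granulocyte-like cells, while Itga4, Itgb1 and Selplg are highest in T/NK-like cells.

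**Figure D2:**
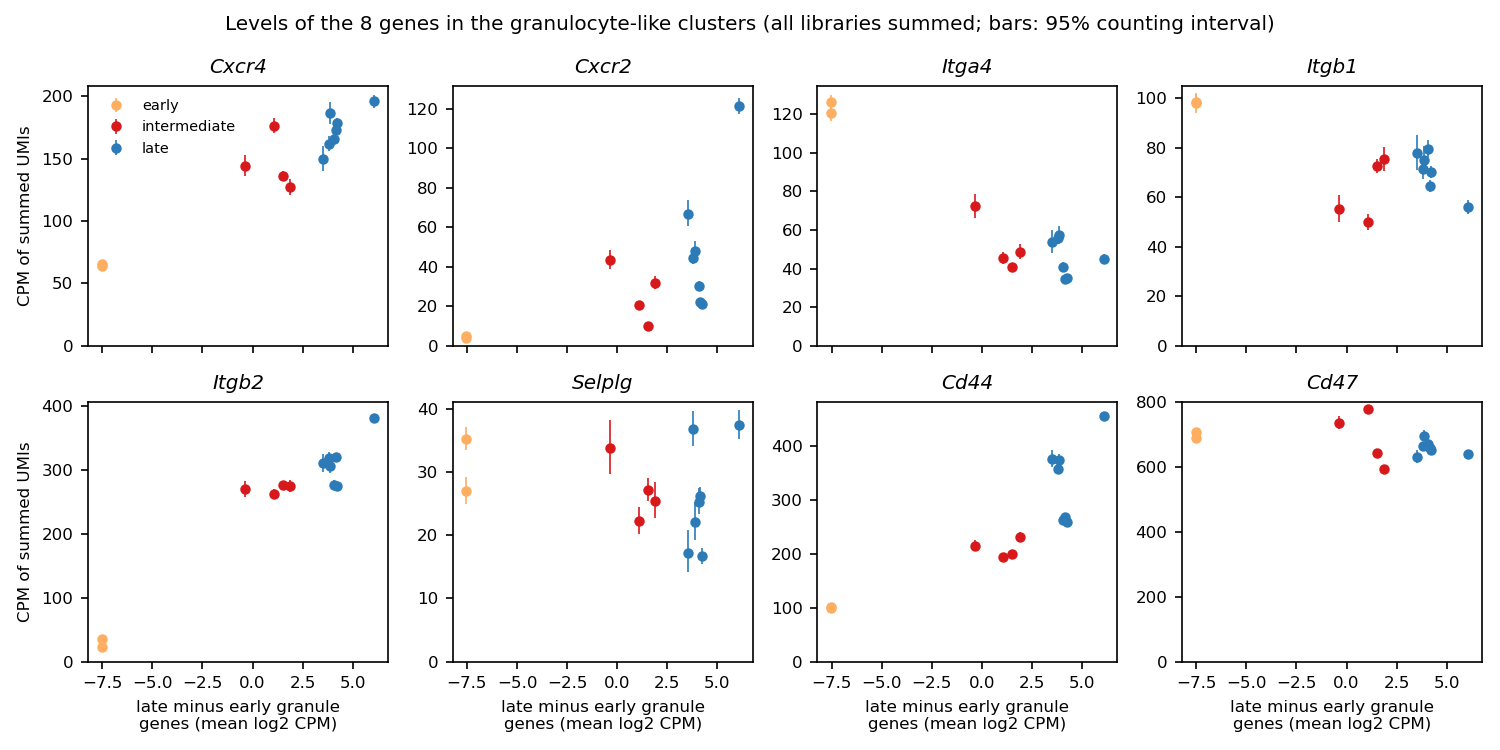
CPM of summed UMIs over all libraries (y axis) against the mean log2 CPM of late minus early granule genes (x axis) in the 13 granulocyte-like clusters of at least 100 cells, with 95% counting intervals. The 2 early clusters sit far to the left, with Itgb2, Cxcr4 and Cd44 at their lowest and Itga4 at its highest; Cxcr2 is highest in the rightmost cluster.

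Each library was then compared with control by the log2 ratio of CPM + 1, and a member was counted when CPM + 1 differed by at least 1.5 times. Intervals are those of the ratio without the added 1. Over all kept cells, where all 8 members had a mean of at least 10 CPM, 0 of 8 members passed 1.5-fold in Mll3SI, against 1.13% of the 8161 genes at that level. In Mll4SI 1 of 8 passed (background 5.53%) and in Mll3/4SI 1 of 8 passed (background 3.73%). It was Cxcr2 both times, and higher; 2.21% and 1.92% of all genes were past 1.5-fold higher. A count of 1 in 8 is too small to set against these shares. The median log2 ratio of the members was -0.14, 0.19 and 0.03, against -0.01, -0.11 and -0.07 over all genes tested.

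In HSC/MPP-like cells 0 of 8 members passed 1.5-fold in Mll3SI (0.957% of 8677 genes), 1 of 8 in Mll4SI (3.20%) and 0 of 8 in Mll3/4SI (2.21%). The member past the threshold was again Cxcr2, which did not reach the mean of 10 CPM asked of the background genes, so 7 members were among the genes tested. At a mean of at least 1 CPM the background in Mll4SI was 7.54%. The retention receptor and the VLA-4 chains were close to control in this class: the log2 ratio of Cxcr4 was 0.07, 0.10 and -0.13 in Mll3SI, then Mll4SI, then Mll3/4SI, that of Itga4 was -0.22, -0.0049 and -0.16, and that of Itgb1 was -0.06, -0.04 and -0.11. The interval of the Cxcr4 ratio ran from -0.05 to 0.19, from -0.02 to 0.22 and from -0.28 to 0.01. Selplg was at its furthest from control in Mll4SI, at -0.35 (interval -0.50 to -0.21), and Cd44 at 0.21 (0.13 to 0.30). Cd47 lay between 0.07 and 0.10 in the 3 libraries.

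In the combined granulocyte-like and monocyte-like cells 0 of 8 members passed in Mll3SI (1.17% of 7679 genes), 1 of 8 in Mll4SI (6.13%) and 1 of 8 in Mll3/4SI (7.80%), each time Cxcr2. The other 7 members lay between -0.28 and 0.40 in Mll4SI and between -0.30 and 0.17 in Mll3/4SI. Cd44 (0.40), Cxcr4 (0.24) and Itgb2 (0.23) were above control in Mll4SI, and Itga4 (-0.24) and Selplg (-0.28) below. Late granulocyte-like cells made up 6824 of the Mll4SI cells against 2243 in control, and with clusters weighted as in control these values were -0.04, -0.02, -0.29, 0.06 and -0.04. Cxcr2 under that weighting was at 0.68 in Mll4SI, against 1.31 without it, and at 0.77 in Mll3/4SI, against 0.87. The weighting rests on the 10 clusters with at least 20 cells in both the library and control, which hold 59.6% of the Mll4SI cells and 33.9% of the Mll3/4SI cells of this population. Scaling by median-of-ratios in place of totals moved the members of Mll4SI and Mll3/4SI up by about the shift of the median gene (-0.10 and -0.12 in this population) and changed no count.

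**Figure D3:**
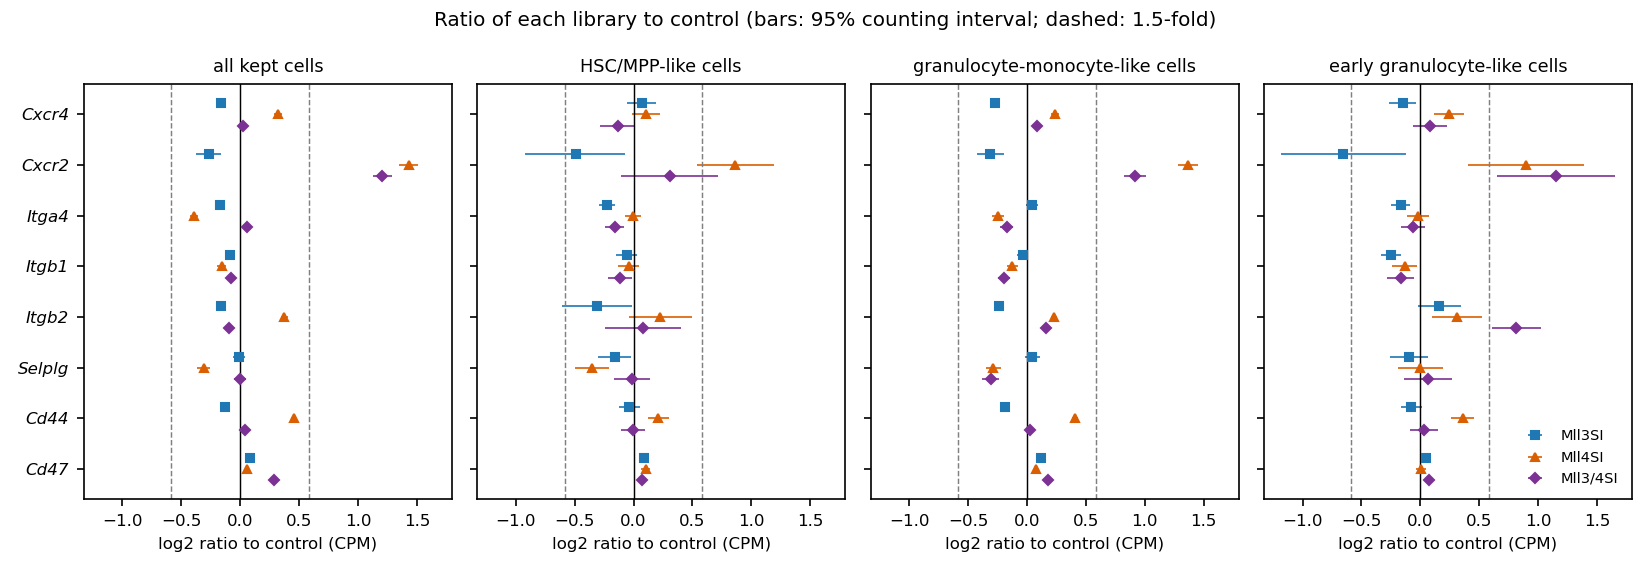
Log2 ratio of CPM to control (x axis, without pseudocount) for the 8 genes (y axis) in 4 populations, with 95% counting intervals; dashed lines mark 1.5-fold. Cxcr2 in Mll4SI and Mll3/4SI lies furthest to the right among all kept cells, and Itgb2 joins it in early granulocyte-like cells of Mll3/4SI.

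The Cxcr2 difference was examined further. Over all kept cells Cxcr2 stood at 12.99 CPM in control, 10.8 in Mll3SI, 35.03 in Mll4SI, with Mll3/4SI at 29.997 CPM. The Mll4SI and Mll3/4SI libraries were high, and Mll3SI was slightly under control. CPM + 1 was 2.58 times control in Mll4SI (log2 1.37, interval 1.35 to 1.51) and 2.22 times control in Mll3/4SI (log2 1.15, interval 1.13 to 1.29), while Mll3SI was at -0.25 (-0.37 to -0.16). Mll4SI and Mll3/4SI are also the 2 libraries with Xist and without Eif2s3y, so genotype and sex cannot be told apart for this gene. The same holds for every other difference of these 2 libraries from control given here.

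Part of the difference over all cells moved with the mix of classes. With the classes of each library weighted as in control, the log2 ratio was 0.89 in Mll4SI and 0.62 in Mll3/4SI. This weighting covers 99.98% of the Mll4SI cells but 73.2% of the Mll3/4SI cells, since the Cpa3/Fcer1a clusters have no counterpart in control. Without the Cpa3/Fcer1a clusters, which held 38.9 CPM of Cxcr2, it was 0.95 in Mll3/4SI. The counts stayed at 1 of 8 under each.

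Among the granulocyte stages the intermediate cells differed most, at log2 ratios of 1.43 in Mll4SI (interval 1.21 to 1.81) and 1.31 in Mll3/4SI (1.17 to 1.62), against 0.04 in Mll3SI (-0.25 to 0.33). In late cells the ratios were 0.77 (0.69 to 0.89), 0.47 (0.37 to 0.60) and -0.09 (-0.22 to 0.04) in the same order of libraries. In early cells, at few UMIs, they were 0.75, 0.97 and -0.49. Monocyte-like cells held 2.91 CPM in control, 2.30 in Mll3SI, 7.37 in Mll4SI, with Mll3/4SI at 4.42 CPM. Of the 8 members, 0 passed 1.5-fold in Mll3SI in any of these 4 classes, where the background was 0.947% in early, 1.55% in intermediate, 1.13% in late and 0.707% in monocyte-like cells. Mll4SI had 1 of 8 in each, always Cxcr2, against 2.92, 9.52, 4.93 and 2.52% of genes. Mll3/4SI had 2, 1, 0 and 0 of 8, against 3.53, 14.0, 4.90 and 1.77%. In early and monocyte-like cells Cxcr2 did not reach the mean of 10 CPM asked of the background genes, so 7 members were tested there. At a mean of at least 1 CPM the background in Mll4SI was 6.71% in early and 5.56% in monocyte-like cells. In early cells of Mll3/4SI it was 7.72%. Different clusters made up the intermediate and late classes, so clusters 1, 15 and 0, which the libraries share, were also read. Other shared clusters, such as 3, 12 and 17, are not given here. In cluster 1 Cxcr2 stood at 21.6 CPM in control, 21.8 in Mll3SI, 38.8 in Mll4SI, with Mll3/4SI at 38.9 CPM, from 1423, 1638, 40 and 34 cells. In cluster 15 it stood at 20.7, 19.9, 34.3 and 49.4 CPM. That cluster held 345 of the 440 intermediate cells of Mll4SI, but 235 of the 1238 in control. Cluster 3, with 1003 of the control cells, held 10.3 CPM over all libraries. Clusters 14 and 21, with 970 and 450 of the 1684 intermediate cells of Mll3/4SI, had 0 control cells and held 20.5 and 43.6 CPM. The intermediate-cell difference was thus not shown cluster by cluster. In the most mature cluster, number 0, the 4 libraries lay within 117 to 134 CPM. It held 2850 of the 6824 late cells of Mll4SI, 192 of the 1793 of Mll3/4SI and 269 of the 2243 of control. The part of this share in the late-cell ratios was not tested. Late clusters 2 and 18, with 2880 of 2928 and 575 of 606 cells from Mll4SI, held 21.0 and 48.3 CPM over all libraries. Late cluster 9, with 1256 of 1312 cells from Mll3/4SI, held 30.4 CPM. These 3 clusters had too few control cells for a ratio, so the late-cell difference was not shown cluster by cluster.

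HSC/MPP-like cells held 7.19 CPM of Cxcr2 in control, 5.11 in Mll3SI, 13.1 in Mll4SI, with Mll3/4SI at 8.90 CPM. The log2 ratio was 0.78 in Mll4SI (interval 0.54 to 1.19), 0.27 in Mll3/4SI (-0.11 to 0.72) and -0.42 in Mll3SI (-0.92 to -0.07). With 10 CPM added in place of 1 the Mll4SI value was 0.43 and no longer passed 1.5-fold. Granulocyte genes moved with it: the 19 granulocyte markers, none of them at 0, summed to 6830 CPM in HSC/MPP-like cells of control, 6396 in Mll3SI, 18091 in Mll4SI, with Mll3/4SI at 8359 CPM. The same list summed to 2712, 3021, 11475 and 1336 CPM in erythroid-like cells, where Mmp8 was at 0 in control and 5 markers were at 0 in Mll3/4SI. The part of these transcripts in the HSC/MPP-like value was not tested.

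The cells of each hashtag were read apart. Over all kept cells Cxcr2 stood at 13.6 and 12.4 CPM in the Hashtag1 and Hashtag2 cells of control, 9.48 and 12.0 CPM in Mll3SI, 35.8 and 35.1 CPM in Mll4SI, and 27.1 and 32.8 CPM in Mll3/4SI. Both values of Mll4SI and Mll3/4SI were above both values of control and Mll3SI, as they were in HSC/MPP-like, early, intermediate, late and monocyte-like cells. In intermediate cells the values were 11.3 and 10.0, 9.27 and 12.7, 31.7 and 31.2, and 27.7 and 29.1 CPM. Across all 8 members and 4 libraries the median size of the log2 difference between the hashtags was 0.07 over all kept cells, and the largest was 0.34.

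**Figure D4:**
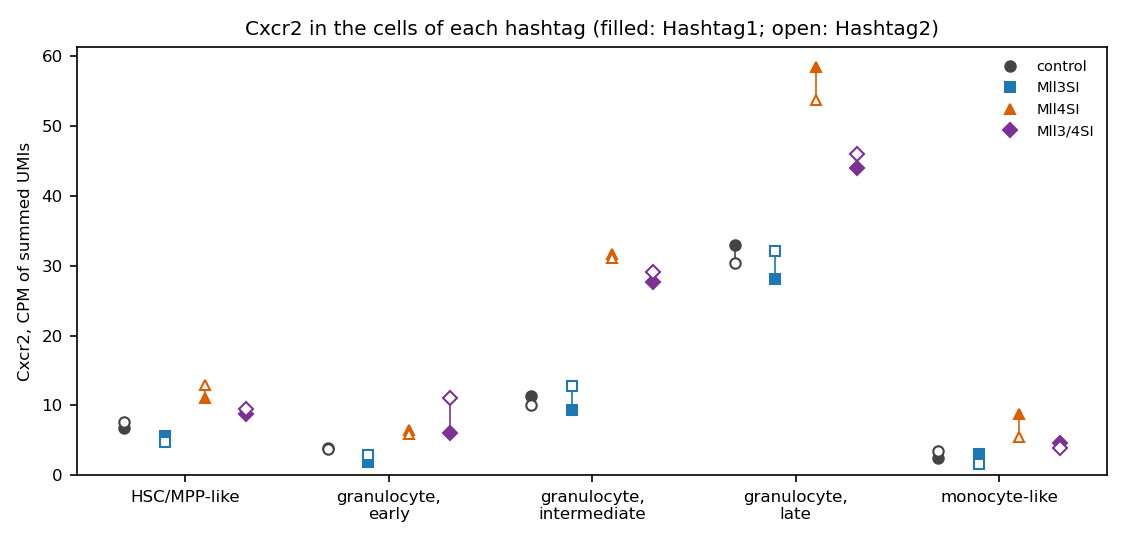
Cxcr2 CPM (y axis) in 5 cell classes (x axis) for the Hashtag1 cells (filled) and Hashtag2 cells (open) of each library. In intermediate and late granulocyte-like cells both points of Mll4SI and of Mll3/4SI lie above both points of control and Mll3SI.

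Shares of cells were compared after thinning every cell to 3000 UMIs, since depth differed between libraries. In late granulocyte-like cells a Cxcr2 UMI was found in 9.68% of control cells (exact interval 8.48 to 10.98), 9.42% of Mll3SI, 16.9% of Mll4SI (16.0 to 17.8) and 12.8% of Mll3/4SI cells (11.2 to 14.4). Without thinning the shares were 31.9, 26.1, 38.6 and 45.2%, at median depths of 15350, 11890, 10856 and 17341 UMIs. In erythroid-like cells, which should lack the gene, the thinned share was at most 0.68% at median depths of 11728 to 16748 UMIs. The late cells lay above that level in every library. In HSC/MPP-like cells the thinned share was 2.04% (1.17 to 3.28), 0.99% (0.43 to 1.93), 2.37% (1.33 to 3.88) and 2.09% (0.84 to 4.26), in the same order. These intervals overlapped each other and those of the erythroid-like cells, whose upper limits were 1.19 to 4.40%. Overlap does not show that the shares are equal, and at this depth they do not settle whether the libraries differ.

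Cxcr4 and Cxcr2 UMIs were counted in the same thinned cells. In late granulocyte-like cells of control 39.9% had Cxcr4 alone, 5.06% Cxcr2 alone and 4.61% both. In Mll4SI the shares were 35.2, 9.08 and 7.85%, and in Mll3/4SI 33.5, 7.33 and 5.43%. In early cells both were found together in at most 0.59% of the cells of a library. Erythroid-like cells had a Cxcr4 UMI in 4.14 to 7.49% of thinned cells.

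Among the HSC/MPP-like, granulocyte-like and monocyte-like classes Itgb2 passed 1.5-fold in 1, the early granulocyte-like cells of Mll3/4SI. It stood at 23.1 CPM in control, 25.8 in Mll3SI, 28.7 in Mll4SI, with Mll3/4SI at 40.6 CPM, so that Mll3/4SI was high and the others close together. The log2 ratio was 0.79 in Mll3/4SI (interval 0.61 to 1.02), 0.30 in Mll4SI and 0.15 in Mll3SI. With Cxcr2, 2 of 8 members were past 1.5-fold in that comparison, against 3.53% of 7921 genes. Those genes had a mean of at least 10 CPM, which Cxcr2 did not reach in early cells. At a mean of at least 1 CPM the background was 7.72%. The Hashtag1 and Hashtag2 cells held 24.2 and 22.9 CPM in control and 39.1 and 42.2 CPM in Mll3/4SI. Itgam, the αM partner, stood at 41.7, 41.7, 59.7 and 78.5 CPM in the same cells. The CD11b antibody, which binds the αM protein, took 3.45, 4.14, 5.55 and 8.30% of their surface antibody UMIs, with a median of 35, 39, 40 and 137 UMIs per cell. The 19 granulocyte markers also summed higher, at 41900, 48502, 59827 and 69324 CPM, and their part in the Itgb2 value was not tested. Itgal, the αL partner, went another way, at 22.7, 17.4, 9.87 and 17.4 CPM. The high CD11b share of Mll3/4SI was not particular to early cells. In late cells it was 19.7, 19.6, 22.6 and 24.8%, although Itgam (625, 572, 667 and 545 CPM) and Itgb2 were lowest in Mll3/4SI. The share was also highest in Mll3/4SI in intermediate and monocyte-like cells. In HSC/MPP-like, erythroid-like and B-lymphoid-like cells it was highest in Mll4SI.

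**Figure D5:**
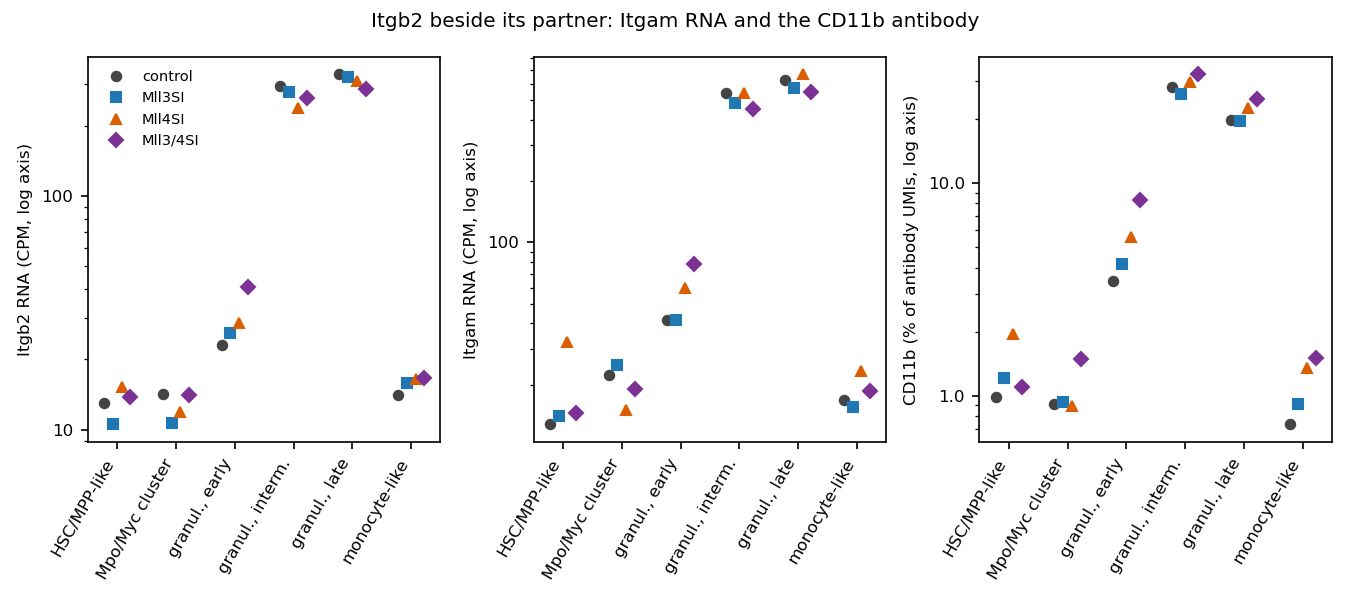
Itgb2 RNA, Itgam RNA and the CD11b antibody share (y axes, log scale) by cell class (x axis) and library. In early granulocyte-like cells all 3 are highest in Mll3/4SI. In late cells Itgb2 and Itgam are lowest there, at 286 and 545 CPM, while the CD11b share is highest there.

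The genes that act with the members were taken from 8 lists holding 108 genes. In HSC/MPP-like cells 65 of them reached 10 CPM. Of these, 2 were past 1.5-fold higher and 0 lower in Mll3SI, 3 higher and 1 lower in Mll4SI, and 2 higher and 1 lower in Mll3/4SI. Over all genes tested 0.403, 1.86 and 1.33% were past 1.5-fold higher and 0.553, 1.35 and 0.887% lower. None of the 15 CXCR4 signalling genes, 15 integrin activation genes, 11 selectin and selectin ligand genes or 7 partners of CD44 and CD47 passed there in any library. Their medians lay between -0.06 and 0.05, against 0.01, -0.003 and -0.05 over all genes.

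Among the 3 other chemoattractant receptors measured in HSC/MPP-like cells, Ccr2, the receptor of CCL2 on monocytes and some progenitors, was higher in all 3 libraries. It stood at 10.4 CPM in control, 18.3 in Mll3SI, 49.5 in Mll4SI, with Mll3/4SI at 33.0 CPM, at log2 ratios of 0.76, 2.15 and 1.57. Among the 6 other integrin subunits, Itgb3, the β3 chain of the vitronectin receptor, stood at 9.86 CPM in control, 22.7 in Mll4SI (log2 1.13) and 17.5 CPM in Mll3/4SI (0.77). Itgam was higher in Mll4SI, at 32.5 against 12.8 CPM (1.28), and Itgal lower, at 16.9 against 41.0 CPM (-1.23). The 19 granulocyte markers summed to 18091 against 6830 CPM in the same cells. Itgam was also higher in Mll4SI in erythroid-like cells (29.7 against 3.45 CPM) and B-lymphoid-like cells (27.04 against 8.36 CPM), and the part of granulocyte transcripts in its HSC/MPP-like value was not tested. Of 6 other niche adhesion genes, Esam, an endothelial and stem cell adhesion molecule, was higher in Mll3SI at 17.1 against 8.01 CPM. Of 2 niche ligands, Selp, which encodes P-selectin, was lower in Mll3/4SI at 27.3 against 43.1 CPM.

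In the combined granulocyte-like and monocyte-like cells 64 of the 108 genes reached 10 CPM, and 0 were higher and 1 lower in Mll3SI, 4 higher and 3 lower in Mll4SI, and 2 higher and 4 lower in Mll3/4SI. Over all genes tested 0.417, 1.91 and 1.32% were higher and 0.755, 4.22 and 6.49% lower, so the 4 of 64 lower in Mll3/4SI are near the background. Each ratio here mixes cell classes, and monocyte-like cells numbered 705 in control, 808 in Mll4SI and 278 in Mll3/4SI, so the value within a class is given beside it.

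Fpr2, a formyl peptide receptor of neutrophils, stood at 36.4 CPM in control, 86.0 in Mll4SI (log2 1.22) and 60.5 CPM in Mll3/4SI (0.72). In late granulocyte-like cells alone its ratios were 0.66 and 0.71, still past 1.5-fold. With it, 2 of 7 other chemoattractant receptors were higher in each of these libraries. The second was Ccr2 in Mll4SI, at 0.66 in the combined cells and 0.94 in monocyte-like cells, and Ccr1 in Mll3/4SI, at 0.71 and, in late granulocyte-like cells, 0.55, which did not pass. The median of the 7 was -0.08, 0.39 and 0.13 in Mll3SI, then Mll4SI, then Mll3/4SI.

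Of 14 CXCR4 signalling genes, Rgs18, a regulator of G protein signalling, was higher in Mll4SI at 149.96 against 97.3 CPM, and its ratio was 0.63 in early granulocyte-like and 0.80 in monocyte-like cells. The medians of the list were -0.11, 0.08 and 0.02. Of 5 other integrin subunits, Itga1, the α1 chain of a collagen receptor, stood at 16.0 CPM in control, 37.6 in Mll4SI and 8.95 CPM in Mll3/4SI. In monocyte-like cells it stood at 72.4, 217 and 72.2 CPM, so it was higher there in Mll4SI (log2 1.57), while Mll3/4SI was at -0.0035.

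Of 7 partners of CD44 and CD47, the proteoglycan core gene Srgn and the calreticulin gene Calr were past 1.5-fold lower in the combined cells of both libraries. Srgn stood at 965 CPM in control, 514 in Mll4SI and 573 CPM in Mll3/4SI, and Calr at 601, 362 and 305 CPM. Within classes this did not hold in Mll3/4SI. None of the 7 was past 1.5-fold lower there in the early, intermediate, late or monocyte-like class, and Srgn was higher in intermediate cells at 189 against 85.7 CPM (1.13). In Mll4SI Srgn was lower in late cells alone, at 19.6 against 31.6 CPM (-0.66), and Calr passed in none of the 4 classes.

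Of 15 integrin activation genes, Fyb was lower in Mll3SI (33.5 against 52.9 CPM), with a ratio of -0.70 in intermediate cells. Pecam1, 1 of 5 other niche adhesion genes, was lower in Mll3/4SI (22.3 against 40.2 CPM), but its ratio in monocyte-like cells was -0.23. Icam2, 1 of 2 niche ligands, was lower in Mll4SI (10.3 against 17.4 CPM), but its ratio in monocyte-like cells was -0.48, within 1.5-fold. None of the 9 selectin and selectin ligand genes passed in the combined cells, with medians of -0.03, 0.11 and 0.03.

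The genes whose pattern was most like that of each member were found from log2(CPM + 1) over the 34 sums of class and library with at least 100 cells, among 8545 genes. These sums share libraries and classes, and the correlations are a description. Cxcr4 was followed most closely by Abr (r = 0.92), Mirt1 (0.92) and Lcp1 (0.92), and Cxcr2 by Il18rap (0.90), Mboat7 (0.88) and Neat1 (0.86). Itga4 was followed by Mta3, Top2b and 2010315B03Rik (0.96 each), and Itgb1 by Gcn1 (0.93), Ice1 (0.92) and Mtr (0.92). Itgb2 had the closest match of all, with Cd300lf, Arrb2 and Vasp at 0.98. Selplg was followed by Rasa4, Ifi209 and Plekha1 (0.84 to 0.85), Cd44 by Nos1ap (0.96), Sla (0.94) and Ptpn1 (0.94), and Cd47 by Slc7a8 (0.92), Cpa3 (0.91) and Crlf2 (0.86). Among the members themselves, Itgb2 and Itga4 were the most opposed pair (-0.78) and Itgb2 and Cd44 the most alike (0.78).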

How the data were processed

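The deposited files held raw counts of UMIs per feature and cell barcode, made by the authors with Cell Ranger 7.1.0 and build mm10 per the submitters' processing notes. The annotation and cell-calling settings are not given in the sources used here. Barcodes with at least 500 genes, at least 1000 UMIs and at most 10% mitochondrial UMIs were kept, and Scrublet doublets were removed at 0.8% per 1000 cells. Cells of all libraries were clustered with scanpy 1.11.5 (2000 variable genes, 30 components, 15 neighbours, Leiden resolution 1). A cluster was named for a class with at least 3 markers at a log2 ratio of 1 or more to all other cells (10 CPM added). The class had to lead the next by at least 2 markers, and no other class could have more among the 10 leading genes. Clusters of low depth without a marker among these genes stayed unnamed. So did basophil/mast candidates with at least 95% of cells from 1 library, a rule set after the clusters were seen. UMIs were summed per library and class (at least 20 cells) and given as CPM. Exact Poisson intervals (levels), exact conditional binomial intervals (ratios) and exact binomial intervals (shares) are at 95%. UMI counts of 1 library measure counting error only. The ratio and its interval were run on simulated counts with Poisson error alone, the error that the interval assumes. That simulation cannot measure variation between libraries or animals. The naming rule took the 8 members, the 2 highest and 2 lowest ratios of each list and the 3 genes most like each member; of the list genes, those past 1.5-fold are printed. The members and lists were chosen with earlier results of these data known. Alternatives covered barcode filters, doublets, hashtags, scaling, pseudocount, clustering and class mix.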

Additional observations from a re-analysis of the deposited data

How the results depend on the processing

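The count of members past 1.5-fold was computed under up to 12 alternatives for each library. This covered all kept cells, HSC/MPP-like cells and the combined granulocyte-like and monocyte-like cells. The early, intermediate, late and monocyte-like classes were not run alone, apart from the hashtag parts given above. The count changed in 5 cases. Over all kept cells of Mll4SI it was 2 with the mean over cells of scaled UMIs in place of summed UMIs, since Itga4 also passed, lower. In HSC/MPP-like cells it was 1 in Mll3SI with Hashtag2 cells alone, 0 in Mll4SI with log2(CPM + 10), and 2 in Mll4SI at Leiden resolution 2, where Itgb2 stood at -0.98. In granulocyte-like and monocyte-like cells of Mll3SI it was 1 with Hashtag1 cells alone, Cxcr2 being lower at -0.60. The cause of these changes was not tested. Leaving out the Cpa3/Fcer1a clusters was chosen after seeing the data. Leiden resolution 0.5 gave no HSC/MPP-like class. Itgb2 in HSC/MPP-like cells of Mll4SI had no steady sign, with 5 of 10 alternatives on the side of the main value of 0.21. It stood at 15.3 CPM in the whole class, but at 8.93 and 11.5 CPM in the Hashtag1 and Hashtag2 cells. The same parts of control held 11.2 and 13.7 CPM. No paired analysis was possible because each group is 1 library. Cxcr2 in early, monocyte-like and HSC/MPP-like cells rests on few UMIs per cell.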

Other observations

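The clusters led by Cpa3 and Fcer1a, found in Mll3/4SI alone apart from 2 cells, had no counterpart in control. They are part of all kept cells and so enter the Mll3/4SI ratios over all cells. Without them the log2 ratio moved from 0.06 to -0.41 for Itga4, from -0.09 to 0.37 for Itgb2 and from 0.29 to 0.11 for Cd47. The 1811 Mll3/4SI cells of these clusters held 38.9 CPM of Cxcr2, close to the late granulocyte-like cells of the same library at 44.0 CPM. They held 1032 CPM of Cd47, the second highest class level of that gene in that library. Cxcr4 stood at 82.6 CPM, Itga4 at 214 CPM, Itgb1 at 113 CPM, Itgb2 at 20.01 CPM, Selplg at 60.7 CPM and Cd44 at 166 CPM. After thinning to 3000 UMIs, 9.61% of these cells had a Cxcr2 UMI (exact interval 8.29 to 11.07). In the basophil/mast-like cells of Mll3/4SI Cxcr2 stood at 39.0 CPM and in those of control, Mll3SI and Mll4SI at 13.6, 10.4 and 19.9 CPM. These came from 66 cells of Mll3/4SI and 159, 123 and 110 cells of the others. The log2 ratio of Mll3/4SI to control was 1.45, and 1 of 8 members passed 1.5-fold. In that comparison 16.3% of 8652 genes were past 1.5-fold.

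An unnamed cluster, number 7, was led by genes that include Mpo, Myc and Ccl9. Its ranges overlapped those of HSC/MPP-like cells for 5 members, among them Cxcr4 (62.1 to 73.6 CPM) and Itgb2 (10.7 to 14.2 CPM). They did not overlap for the other 3: Itga4 was lower (149 to 168 against 198 to 231 CPM), Selplg lower (35.2 to 43.2 against 44.7 to 57.1 CPM) and Cd47 higher (894 to 944 against 805 to 864 CPM). Its Cxcr2 stood at 8.46 CPM in control, 7.21 in Mll3SI, 16.5 in Mll4SI, with Mll3/4SI at 9.16 CPM, at a log2 ratio of 0.89 in Mll4SI. Another unnamed cluster of 138 cells, led by Cd74 and H2-Aa, combined Selplg at 208 to 261 CPM with Itgb2 at 136 to 216 CPM.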
